A study of Homo sapiens with 8 samples.

Results

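The 46 genes described here encode the working parts of the lysosome and of autophagy, and they were taken by symbol from a list set by function, out of 37526 gene names listed for all 8 libraries. They comprise 9 cathepsins, 3 lysosomal membrane proteins, 9 glycan-degrading enzymes, 7 genes of lipid handling and peptide removal, 5 genes of acidification and ion release, 2 transcription factors, 2 autophagy receptors, 3 ATG8 proteins and 6 genes of autophagy initiation and conjugation. RNA was sequenced from NB4, a human acute promyelocytic leukemia (APL) line that carries the PML/RARα fusion and matures toward granulocytes under all-trans retinoic acid (ATRA). Cells stably transduced with a control vector (shNC) or with an shRNA against KDM3B (shKDM3B), which encodes a histone H3 lysine 9 demethylase, were left undifferentiated or were treated with 1 µM ATRA (shNC_ATRA and shKDM3B_ATRA), with 2 libraries in each of the 4 groups. The labels call the control an empty vector, whereas the methods name a scrambled shRNA, and the shRNA used for sequencing was not named. The labels give ATRA times of 24 and 48 hours without assigning them to libraries. Nothing in the labels says that replicates were separate cultures, so the p-values below measure the spread between libraries, which may be technical.

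KDM3B itself was at 187 and 188 CPM (counts per 1000000 counts on genes, scaled by the TMM method over all 8 libraries, replicate 1 first) in shNC and at 76.3 and 86.2 in shKDM3B. It was at 196 and 121 CPM in shNC_ATRA and at 52.5 and 57.4 in shKDM3B_ATRA, so every shKDM3B library was below every shNC library of the same treatment. Between 9708739 and 33017787 counts fell on genes per library. The libraries were not alike in 1 respect that cut across the groups. Read pairs that aligned outside genes made up 8.49% to 9.62% of the uniquely aligned ones in the 4 untreated libraries and in shNC_ATRA replicate 1, against 50.02% in shNC_ATRA replicate 2 and 51.05% to 51.45% in the shKDM3B_ATRA libraries. In shKDM3B cells, ATRA and this share cannot be told apart. In shNC cells each ATRA library was therefore also compared alone with shNC, and shKDM3B_ATRA was also compared with shNC_ATRA replicate 2 alone.

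Lysosomes break down proteins, glycans and lipids in an acid lumen. Cathepsins cleave the proteins, a vacuolar H+-ATPase pumps in protons, and heavily glycosylated membrane proteins such as LAMP1 shield the limiting membrane. Autophagy delivers cytoplasm to them: the ULK1 kinase and the BECN1 complex start a membrane, WIPI1, ATG5, ATG7 and ATG16L1 carry ATG8 proteins onto it, and receptors such as SQSTM1 bind the cargo to ATG8. TFEB and TFE3 are transcription factors of many of these genes and bind the E-box CACGTG. In the promyelocyte, lysosome-related azurophil granules are a hallmark of the cell, and maturation toward the neutrophil remodels them.

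Per length of the canonical transcript, the order of the 46 genes in shNC cells was led by CTSC, the dipeptidyl peptidase that activates granule serine proteases, with a mean of 309 CPM per kilobase. It was followed by PSAP, the precursor of the saposins (160.2 CPM per kilobase), LAMP1 (145), PPT1 (95.3) and CD63 (86.7). At the other end stood WIPI1 (0.767 CPM per kilobase), FUCA1 (0.477), OPTN (0.0277) and NEU1 (0). In shNC_ATRA cells CTSC and PSAP were still the first and second (373 and 346 CPM per kilobase), and CTSD had moved from rank 24 to rank 3 (18.2 to 234 CPM per kilobase), whereas CTSH had moved from rank 12 to rank 35 (44.1 to 10.8). These per-length levels are means over 2 libraries, and neighbours in the order such as GLA, CTSZ, CTSA and ATP6AP1 (53.0 to 55.0 CPM per kilobase) lie within the spread of the replicates. Between replicates of a group, members differed by a median of 0.196 log2 units in shNC, 0.163 in shKDM3B, 0.273 in shNC_ATRA and 0.136 in shKDM3B_ATRA.

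The first comparison asks what ATRA did to these genes in control cells. The call required a fold change of 1.5 or more and an unadjusted P below 0.05 in edgeR's quasi-likelihood test. Of the 44 members tested, 23 rose, 2 fell and 19 were not called, with a median log2 fold change of 0.75, where 15% of all 12429 genes tested rose and 10.8% fell around a median of 0.02. With Benjamini-Hochberg adjusted p-values in the same rule, 13 members rose and 1 fell, against 7.84% and 5.06% of all genes. In all 23 that rose, both shNC_ATRA libraries lay above both shNC libraries, which the call itself favours and which adds no support. For this count and the next, the matching count over all genes is not given. Replicate 2, the one with 50.02% of its pairs outside genes, was the higher of the 2 shNC_ATRA libraries in 14. Replicate 1 alone, on the same side as shNC in that share, gave 19 risers and 2 genes that fell, all called with both libraries as well, where 12.9% of all genes rose and 11.7% fell. With 1 ATRA library its spread was taken from the shNC pair, so these p-values rest on the assumption that it varies like them. Replicate 2 alone gave 27 risers and 3 that fell, where 21.4% and 16.99% of all genes did, and the members it added were CTSK (1.19), PPT1 (1.41), ATP6V1H (0.9997) and ATG5 (0.961), which rose, and GABARAP, which fell. Leaving out shNC replicate 1 or shNC replicate 2 left 12 and 11 risers, against 6.79% and 6.94% of all genes.

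**Figure D1:**
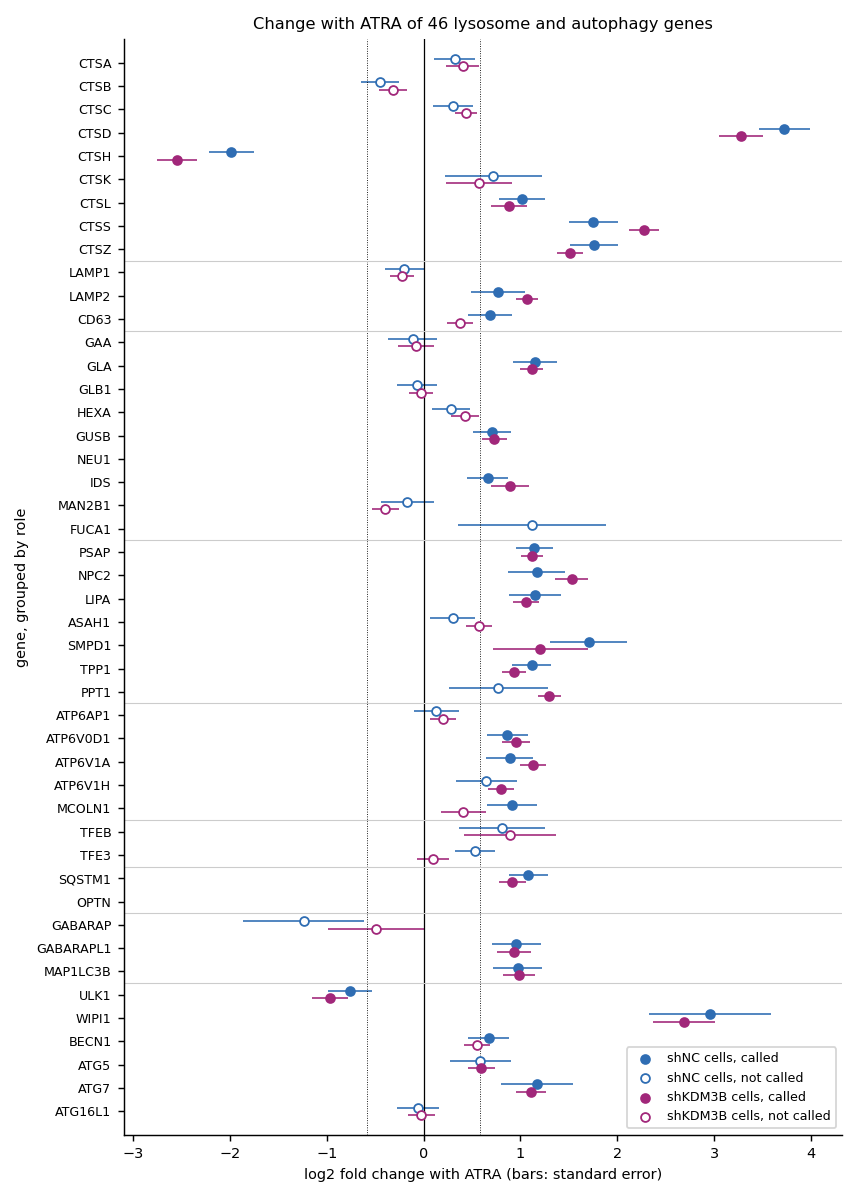
Log2 fold change with ATRA (horizontal axis) of each of the 46 genes, grouped by role, in shNC cells (blue) and shKDM3B cells (purple), with standard errors as bars, filled points for called genes and dotted lines at a fold change of 1.5. CTSD and WIPI1 lie farthest to the right and CTSH farthest to the left in both, and NEU1 and OPTN have no point because too few reads were counted on them.

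Among the cathepsins, 4 of 9 rose and 1 fell. CTSD, the aspartic protease of the lysosome (chromosome 11, 1752752 to 1764573 of hg38, minus strand), was at 34.8 and 39.9 CPM in shNC, 31.4 and 44.3 in shKDM3B, 407 and 556 in shNC_ATRA and 285 and 425 in shKDM3B_ATRA. Its log2 fold change in shNC cells was 3.72 (SE 0.26, adjusted p = 0.000325), the largest of the 46 genes, and the treated and untreated libraries did not overlap in either cell line. CTSZ, a carboxypeptidase, was at 77.4 and 86.98 CPM in shNC, 70.7 and 83.4 in shKDM3B, 325 and 219 in shNC_ATRA and 206 and 219 in shKDM3B_ATRA, with a log2 fold change of 1.76 (SE 0.25, adjusted p = 0.00499). CTSS, the elastin-cleaving cathepsin of antigen-presenting cells, was at 42.2 and 32.8 CPM in shNC, 49.5 and 37.8 in shKDM3B, 105 and 141 in shNC_ATRA and 198 and 209 in shKDM3B_ATRA, a log2 fold change of 1.75 (SE 0.26, adjusted p = 0.00534). CTSL rose from 15.2 and 14.7 to 31.8 and 27.2 CPM, by 1.02 (SE 0.23, adjusted p = 0.031) on the log2 scale. The change went the other way for CTSH, an aminopeptidase (chromosome 15, 78921058 to 78949574, minus strand), which was at 86.1 and 103 CPM in shNC, 83.2 and 107 in shKDM3B, 25.3 and 21.2 in shNC_ATRA and 12.8 and 18.3 in shKDM3B_ATRA. Its log2 fold change was -1.99 (SE 0.23, adjusted p = 0.0021), so that untreated cells held more CTSH than CTSD and treated cells more CTSD than CTSH, per kilobase as well as in CPM. All 5 calls held with each library left out in turn. CTSA, CTSB, CTSC and CTSK were not called, at log2 fold changes of 0.32, -0.45, 0.31 and 0.72, and CTSK, the collagenase of osteoclasts, stayed between 2.01 and 5.26 CPM. Other genes' exons cover 48% of CTSD's exon length and 31.7% of CTSZ's, and whether reads were counted by strand is not given in the sources used here.

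The genes of lipid handling and peptide removal had 5 of 7 members called, all higher, and all 7 log2 fold changes were above 0. PSAP (chromosome 10, 71816298 to 71851251, minus strand) was at 424 and 456 CPM in shNC, 438 and 452 in shKDM3B, 955 and 944 in shNC_ATRA and 969.5 and 894 in shKDM3B_ATRA. Its log2 fold change was 1.14 (SE 0.19, adjusted p = 0.00915), with the 4 ATRA libraries between 894 and 969.5 CPM and the untreated ones between 424 and 456. SMPD1, acid sphingomyelinase, was at 3.06 and 5.83 CPM in shNC, 1.49 and 4.02 in shKDM3B, 15.4 and 13.00 in shNC_ATRA and 4.002 and 8.54 in shKDM3B_ATRA, a log2 fold change of 1.71 (SE 0.40, adjusted p = 0.0328). TPP1, a tripeptidyl peptidase, rose from 113 and 125 to 246 and 259 CPM (1.11 (SE 0.20, adjusted p = 0.0124)). LIPA, the acid lipase that frees cholesterol from its esters, rose from 48.5 and 51.5 to 84.5 and 132 CPM (1.15 (SE 0.27, adjusted p = 0.0327)), and NPC2, which hands that cholesterol on, from 14.1 and 18.1 to 27.8 and 42.9 CPM (1.17 (SE 0.29, adjusted p = 0.0429)). LIPA lost its call without shNC replicate 1 (1.07) or shNC replicate 2 (1.18), and NPC2 without shNC replicate 1 (0.97). PPT1, the palmitoyl thioesterase, was at 224 and 211 CPM in shNC, 195 and 190.0 in shKDM3B, 159.6 and 563 in shNC_ATRA and 447 and 466 in shKDM3B_ATRA. Its 2 shNC_ATRA libraries lay on opposite sides of shNC, and the log2 fold change of 0.77 was not called (SE 0.51, adjusted p = 0.391). With shNC_ATRA replicate 2 alone it was 1.41. ASAH1, acid ceramidase, was at 0.297 and not called.

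Of the 9 glycan-degrading enzymes, 3 rose and none of the 8 tested fell. GLA, the α-galactosidase, was at 76.7 and 68.3 CPM in shNC, 71.3 and 73.1 in shKDM3B, 136 and 178 in shNC_ATRA and 148 and 153 in shKDM3B_ATRA, a log2 fold change of 1.15 (SE 0.23, adjusted p = 0.0174) that held with each library left out. GUSB, β-glucuronidase, rose from 111 and 115 to 186 and 173 CPM (0.702 (SE 0.20, adjusted p = 0.0597)). IDS, iduronate sulfatase, rose from 22.2 and 21.6 to 34.6 and 32.9 CPM (0.66 (SE 0.21, adjusted p = 0.0907)). The calls of GUSB and IDS did not pass the adjusted rule and were lost without shNC replicate 1 (0.65 for both) or replicate 2 (0.71 and 0.63). GAA, GLB1, HEXA and MAN2B1, the acid glucosidase, β-galactosidase, hexosaminidase α-subunit and acid mannosidase, had log2 fold changes of -0.11, -0.07, 0.28 and -0.17 and were not called. FUCA1, an α-fucosidase with counts of 33 and 7 in shNC and 28 and 26 in shNC_ATRA, had a log2 fold change of 1.118 (SE 0.77, adjusted p = 0.405) and was not called either, with both ATRA libraries above both shNC libraries in CPM.

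At the membrane, LAMP2 and CD63 were called and LAMP1 was not. LAMP1 (chromosome 13, 113297239 to 113323672, plus strand) was at 383 and 402 CPM in shNC, 382 and 428 in shKDM3B, 312 and 355 in shNC_ATRA and 320.2 and 349 in shKDM3B_ATRA, a log2 fold change of -0.200 (SE 0.20, adjusted p = 0.574), and its ATRA libraries lay below its untreated ones. LAMP2, a splice form of which serves chaperone-mediated autophagy, was at 206 and 178 CPM in shNC, 257 and 235 in shKDM3B, 244 and 395 in shNC_ATRA and 497 and 495 in shKDM3B_ATRA. Its log2 fold change of 0.77 (SE 0.28, adjusted p = 0.125) fell to 0.35 without shNC_ATRA replicate 2. CD63, a tetraspanin of late endosomes and azurophil granules, rose from 92.2 and 85.2 to 121 and 157 CPM (0.69 (SE 0.22, adjusted p = 0.0958)), and by 0.45, not called, without that library. Both calls were also lost without either shNC library (0.62 to 0.85).

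Of the acidification and ion channel genes, ATP6V0D1, ATP6V1A and MCOLN1 rose and all 5 log2 fold changes were above 0. ATP6V0D1, a subunit of the membrane sector of the proton pump (chromosome 16, 67438014 to 67481181, minus strand), was at 101 and 86.1 CPM in shNC, 61.5 and 77.04 in shKDM3B, 154 and 177 in shNC_ATRA and 124 and 135 in shKDM3B_ATRA, a log2 fold change of 0.86 (SE 0.21, adjusted p = 0.0391). ATP6V1A, the catalytic subunit, rose from 68.5 and 69.02 to 101 and 147 CPM (0.89 (SE 0.25, adjusted p = 0.0599)). MCOLN1, the channel that releases calcium from lysosomes, rose from 12.7 and 12.2 to 25.4 and 20.4 CPM (0.92 (SE 0.26, adjusted p = 0.0621)). These calls depended on single libraries. Without shNC replicate 1, ATP6V1A (0.85) and MCOLN1 (0.91) were not called, without shNC replicate 2 none of the 3 was (0.74 to 0.88), and without shNC_ATRA replicate 2 ATP6V1A stood at 0.56. ATP6V1H and ATP6AP1 were at 0.65 and 0.13 and not called.

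The transcription factors were not called, with log2 fold changes above 0 for both. TFEB was scarce, at 2.46 and 1.51 CPM in shNC, 0.668 and 1.38 in shKDM3B, 3.13 and 3.69 in shNC_ATRA and 1.37 and 2.41 in shKDM3B_ATRA, a log2 fold change of 0.81 (SE 0.44, unadjusted P = 0.109, adjusted p = 0.293 from edgeR). TFE3 was at 32.4 and 35.3 CPM in shNC, 28.9 and 35.6 in shKDM3B, 47.7 and 47.6 in shNC_ATRA and 35.3 and 31.4 in shKDM3B_ATRA, with a log2 fold change of 0.53 (SE 0.21, unadjusted P = 0.0378, adjusted p = 0.152 from edgeR) that stayed under the fold threshold. In both genes the 2 shNC_ATRA libraries lay above the 2 shNC libraries.

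In the autophagy groups, the receptor, 2 ATG8 genes and 3 genes of initiation and conjugation rose, ULK1 fell, and GABARAP, ATG5 and ATG16L1 were not called. SQSTM1, the receptor also known as p62 (chromosome 5, 179806398 to 179838078, plus strand), was at 129 and 119.8 CPM in shNC, 104 and 119.6 in shKDM3B, 272 and 243 in shNC_ATRA and 185 and 222 in shKDM3B_ATRA, a log2 fold change of 1.08 (SE 0.20, adjusted p = 0.0139) that held with each library left out. The ATG8 genes GABARAPL1 and MAP1LC3B rose from 14.7 and 12.6 to 23.7 and 27.9 CPM (0.96 (SE 0.25, adjusted p = 0.0504)) and from 49.2 and 46.1 to 73.1 and 109 CPM (0.97 (SE 0.26, adjusted p = 0.0514)). The near-identical copy MAP1LC3B2 can share reads with MAP1LC3B, for which 1 of 35 exon segments of 150 bases did not map uniquely. The other ATG8 gene, GABARAP, had counts of 28 and 39 in shNC and 15 and 3 in shNC_ATRA, a log2 fold change of -1.24 (SE 0.63, adjusted p = 0.257) that was not called, with both ATRA libraries below both shNC libraries in CPM. With shNC_ATRA replicate 2 alone GABARAP was called lower (-2.398). WIPI1, which binds the phosphoinositide of the forming membrane (chromosome 17, 68420948 to 68457513, minus strand), was at 1.20 and 1.72 CPM in shNC, 1.54 and 1.84 in shKDM3B, 5.09 and 17.2 in shNC_ATRA and 8.43 and 12.9 in shKDM3B_ATRA. Its log2 fold change of 2.96 (SE 0.63, adjusted p = 0.024) was the second largest of the 46, and it was 1.79 with shNC_ATRA replicate 1 alone and 3.58 with replicate 2 alone. Without shNC replicate 1 WIPI1 was not called (2.70). ATG7, the E1-like enzyme of ATG8 lipidation, was at 23.6 and 30.04 CPM in shNC, 30.4 and 38.2 in shKDM3B, 37.3 and 80.4 in shNC_ATRA and 71.2 and 71.6 in shKDM3B_ATRA, a log2 fold change of 1.17 (SE 0.38, adjusted p = 0.0925) that dropped to 0.48 without shNC_ATRA replicate 2. BECN1 rose from 66.2 and 53.9 to 93.8 and 92.9 CPM (0.67 (SE 0.21, adjusted p = 0.0888)). Without shNC replicate 1 or 2, ATG7 (0.97 and 1.34), BECN1 (0.80 and 0.52) and MAP1LC3B (0.98 and 0.91) were not called, and without shNC replicate 2 GABARAPL1 (0.84) and ULK1 (-0.68) were not. ULK1, the kinase that starts autophagy, was at 37.7 and 42.6 CPM in shNC, 30.5 and 36.3 in shKDM3B, 25.4 and 20.8 in shNC_ATRA and 14.4 and 18.5 in shKDM3B_ATRA, a log2 fold change of -0.76 (SE 0.22, adjusted p = 0.0712). ATG5 and ATG16L1, partners in the complex that lipidates ATG8, were at 0.59 and -0.06 and not called, and ATG5 was at 52.4 and 97.0 CPM in the 2 shNC_ATRA libraries. Exons of other genes cover 22.4% of SQSTM1's exon length, 28.1% of WIPI1's, 18.1% of ATG7's and 17.1% of BECN1's.

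**Figure D2:**
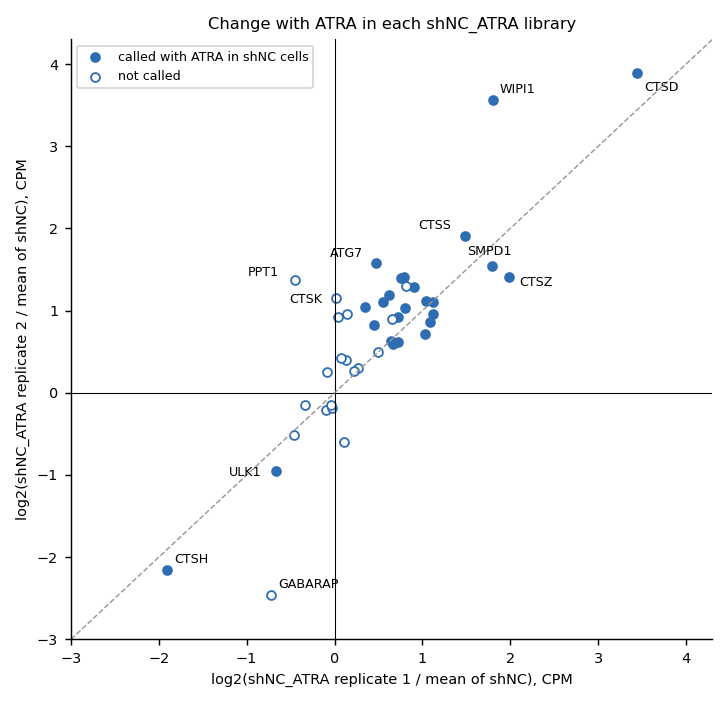
Log2 ratio of each gene's CPM in shNC_ATRA replicate 1 (horizontal axis) and in replicate 2 (vertical axis) to the mean of the 2 shNC libraries, with filled points for genes called and a dashed line where both libraries agree. CTSD, CTSS, CTSZ and SMPD1 lie near the line, WIPI1 well above it, and PPT1 is below 0 in replicate 1 and above 0 in replicate 2.

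Since the share of reads outside genes split the libraries 3 against 5, members were also counted by that split. In 13 of 44 members the 3 libraries with the high share lay above all 5 others and in 4 they lay below, which is 29.5% and 9.09%, against 17.98% and 16.5% of 13528 genes. Of the 23 genes that rose with ATRA in shNC cells, 8 were among the 13 (34.8%, against 31.1% of the 1866 genes that rose), CTSS and LAMP2 included. The part of this split in their values was not tested. Markers of myeloid maturation moved with ATRA in the same libraries. The 6 granulocytic markers summed to 252 to 448 CPM in untreated libraries and 1493 to 3535 CPM in ATRA libraries, with the shKDM3B_ATRA libraries (1493 and 1822) under the shNC_ATRA libraries (3535 and 3261). The 6 promyelocyte markers summed to 4452 to 9723 CPM untreated and 707 to 3224 CPM with ATRA, most of it MPO. MPO was at 4284 and 5343 CPM in shNC, 8339 and 9518 in shKDM3B, 729.6 and 616 in shNC_ATRA and 3128 and 2220.5 in shKDM3B_ATRA, and so higher in shKDM3B than in shNC cells of the same treatment. That direction was MPO's and was not shared by every promyelocyte marker. CD33 went from 62.96 to 77.5 CPM untreated to 87.98 to 110.4 CPM with ATRA, while ELANE, PRTN3 and AZU1 stayed at or under 1.47 CPM. Of the monocyte and macrophage markers, CSF1R was at 2.16 to 5.08 CPM untreated and 3.32 to 9.25 CPM with ATRA, CD163 was at 0 in all 8 libraries and CD14 at or under 0.646 CPM. The 5 lymphoid markers went from 4.21 to 6.34 CPM to 13.7 to 25.6 CPM, with MS4A1 at 0, and HBB and HBA1 of the erythroid list were at 0 throughout. In bulk RNA, fewer cells of a kind and less RNA per cell cannot be told apart, and the part of these markers in the results was not tested.

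The second ATRA comparison was made in shKDM3B cells. Of 43 members tested, 23 rose and 2 fell, where 24% of 12756 genes rose and 18.3% fell, and 22 rose and 2 fell under the adjusted rule, against 23% and 17.3%. The median log2 fold change was 0.80 for the members and 0.04 for all genes. CTSD (log2 fold change 3.28 (SE 0.23, adjusted p = 3.6e-06)), WIPI1 (2.69 (SE 0.32, adjusted p = 0.000115)), CTSS (2.28 (SE 0.16, adjusted p = 3.1e-06)), NPC2 (1.53 (SE 0.17, adjusted p = 7.0e-05)), CTSZ (1.51 (SE 0.13, adjusted p = 1.6e-05)) and PPT1 (1.298 (SE 0.12, adjusted p = 1.7e-05)) rose most. CTSH fell, at -2.55 (SE 0.21, adjusted p = 9.2e-06), and so did ULK1, at -0.97 (SE 0.19, adjusted p = 0.00226). In 23 of the 25 calls, leaving out any 1 library changed nothing. The exceptions were ATG5 (0.49 without shKDM3B replicate 2, 0.56 without shKDM3B_ATRA replicate 2) and SMPD1 (0.65 without shKDM3B replicate 1, 0.56 without shKDM3B_ATRA replicate 2). SMPD1 had overlapping libraries, at 1.49 and 4.02 CPM untreated and 4.002 and 8.54 with ATRA. Both shKDM3B_ATRA libraries have the high share of reads outside genes, so these values carry ATRA and that share together.

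Set side by side, 20 members rose with ATRA in both cell lines and 2, CTSH and ULK1, fell in both. BECN1, CD63 and MCOLN1 were called in shNC cells alone, ATG5, ATP6V1H and PPT1 in shKDM3B cells alone, and 15 in neither. Of the 43 members tested in both lines, 46.5% rose and 4.65% fell in both, where 12.04% and 9.12% of 11968 genes did, and 34.9% of the members and 56.99% of all genes were called in neither. Calls in shNC cells alone made up 6.98% of the members and 4.16% of all genes, and calls in shKDM3B cells alone 6.98% and 17.6%. The difference between the 2 responses was itself tested, in 1 fit of the 8 libraries with an interaction term. None of the 44 members tested passed, at 1.27% of all genes up and 2.72% down, and 0 had an unadjusted P under 0.05, against 4.49% of all 13528 genes. DESeq2 called 0 as well. The smallest unadjusted P was 0.0829, for TFE3, whose response was 0.45 lower on the log2 scale in shKDM3B cells (95% interval -0.97 to 0.08, adjusted p = 0.999958 from the edgeR fit). The 2 cathepsins that moved most, CTSD and CTSH, differed by -0.46 (-1.34 to 0.42) and -0.58 (-1.33 to 0.16), and CTSS by 0.51 (-0.21 to 1.22). Of the genes called in 1 line alone, BECN1 differed by -0.14 (-0.67 to 0.39), CD63 by -0.33 (-0.89 to 0.24), MCOLN1 by -0.53 (-1.34 to 0.28) and PPT1 by 0.52 (-1.08 to 2.11). The intervals had a median width of 1.32 log2 units, and in 28 members they lay within 1 log2 unit of 0. Any difference inside a gene's interval remains compatible with these libraries. PSAP was among the best bounded, at -0.04 (-0.43 to 0.34), and WIPI1 among the worst, at -0.27 (-2.16 to 1.61).

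**Figure D3:**
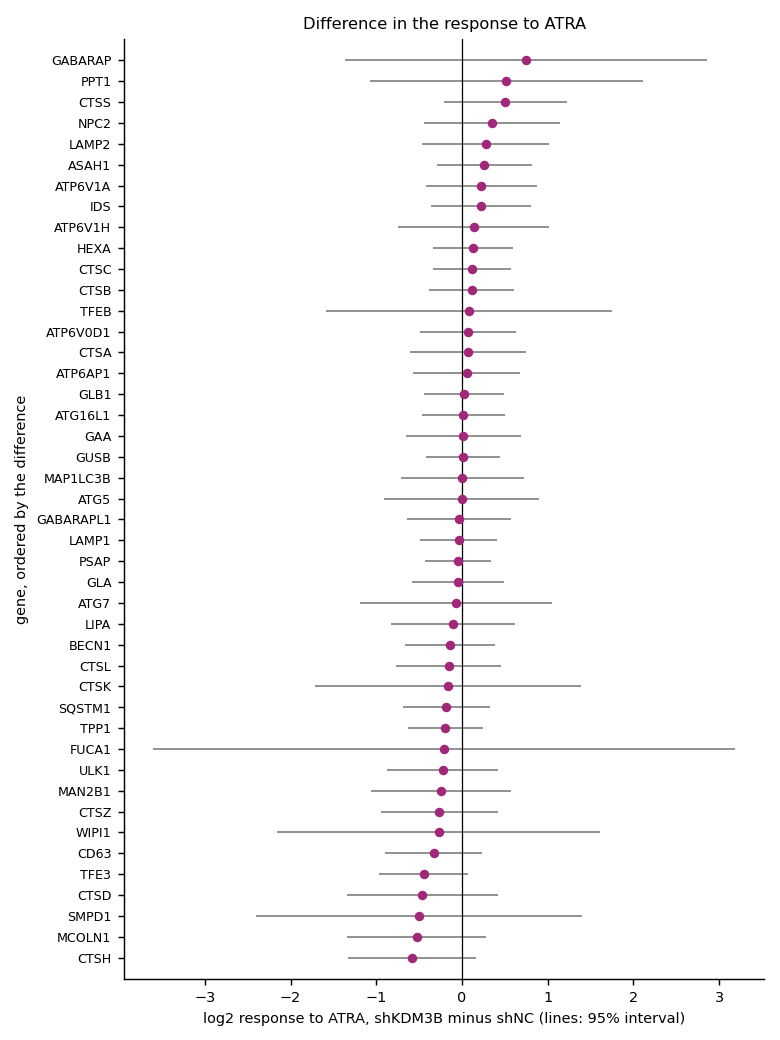
Log2 response to ATRA in shKDM3B cells minus that in shNC cells (horizontal axis) for the 44 genes tested, ordered by the difference, with 95% intervals as lines. All 44 intervals include 0, from the narrowest, of PSAP, to the widest, of FUCA1. Those of GABARAP, SMPD1, WIPI1, TFEB, PPT1 and CTSK also span more than 3 log2 units.

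This result rested on shNC_ATRA replicate 2 in part. Without it, 5 members had a stronger rise in shKDM3B cells: PPT1 (1.69, adjusted p = 0.00151 from edgeR), CTSS (0.73), NPC2 (0.68), LAMP2 (0.66) and ATP6V1H (0.60), of which PPT1 alone passed the adjusted rule, where 8.34% of all genes were called up and 9.03% down. The libraries then compared differ in the share of reads outside genes between the ATRA groups. Without shNC_ATRA replicate 1, where the 3 remaining ATRA libraries share it, no member was called, where 2.75% of all genes were called up and 2.89% down. Without shKDM3B_ATRA replicate 2, where 0.941% and 2.55% were, CTSH was called (-0.86).

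Of 43 members tested in shKDM3B against shNC, none was higher and 2 were lower, IDS and GABARAP, where 3.48% of 13855 genes were higher and 3.53% lower. DESeq2 called 0 higher and 1 lower. An unadjusted P under 0.05 was found for 5 members, against 10.2% of all genes, the others being ATP6V0D1 (-0.43), GUSB (-0.34) and LAMP2 (0.36), whose fold changes were under 1.5. The median log2 fold change was -0.06. IDS (chromosome X, 149476988 to 149521096, minus strand) was at 22.2 and 21.6 CPM in shNC and 10.99 and 14.2 in shKDM3B, a log2 fold change of -0.79 (SE 0.21, unadjusted P = 0.00542, adjusted p = 0.217 from edgeR), and it was called with each library left out. Exons of other genes cover 75.9% of its exon length. GABARAP, an ATG8 protein, had counts of 28 and 39 in shNC and 15 and 24 in shKDM3B (-1.01 on the log2 scale, adjusted p = 0.442 from edgeR), and its call was lost with any 1 library left out (-1.12 to -0.89). No member passed the adjusted rule. The 9 cathepsins had a median of 0.00, with CTSD at 0.02 (SE 0.21) and CTSH at 0.00 (SE 0.18). TFEB, at 2.46 and 1.51 CPM in shNC and 0.668 and 1.38 in shKDM3B, was not called (-0.905, SE 0.47, unadjusted P = 0.091 from edgeR).

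**Figure D4:**
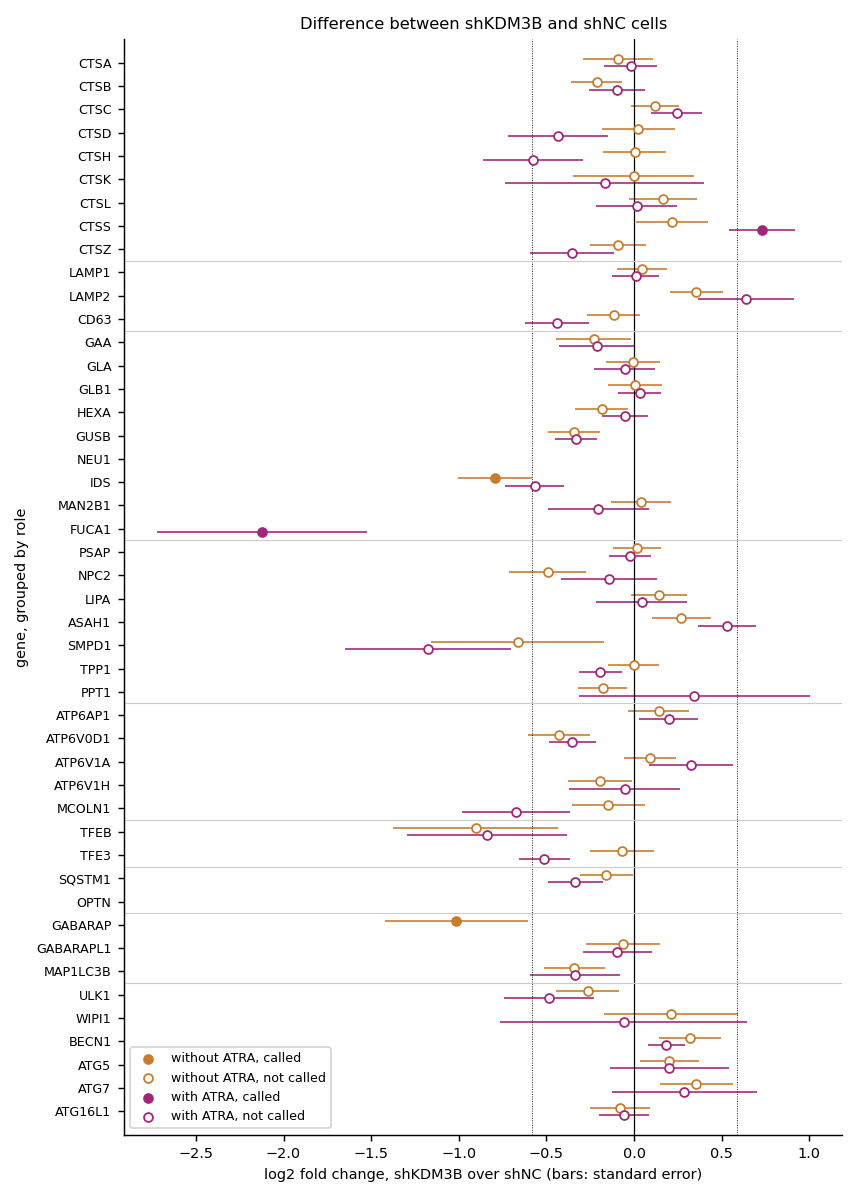
Log2 fold change between shKDM3B and shNC cells (horizontal axis) for each of the 46 genes, without ATRA (orange) and with ATRA (purple), with standard errors as bars and dotted lines at a fold change of 1.5. Filled points mark IDS and GABARAP without ATRA and CTSS and FUCA1 with ATRA, and most other genes lie between the dotted lines.

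With ATRA, 1 of 43 members was higher in shKDM3B cells, CTSS, and 1 lower, FUCA1, where 2.42% of 14281 genes were higher and 4.37% lower. CTSS was at 105 and 141 CPM in shNC_ATRA and 198 and 209 in shKDM3B_ATRA, a log2 fold change of 0.73 (SE 0.19, unadjusted P = 0.0206, adjusted p = 0.502 from edgeR). FUCA1 had counts of 28 and 26 in shNC_ATRA and 3 and 6 in shKDM3B_ATRA, a log2 fold change of -2.12 (SE 0.60, unadjusted P = 0.0275, adjusted p = 0.502 from edgeR). An unadjusted P under 0.05 was found for 5 members, against 9.68% of all genes, the others being TFE3 (-0.51), IDS (-0.57) and ASAH1 (0.53). No member passed the adjusted rule. The median log2 fold change of the members was -0.10. FUCA1 was not called without either shKDM3B_ATRA library (-1.74 and -2.65), by DESeq2 (-2.15), with the replicate number as a block (-2.17) or in a single fit of all 8 libraries (-2.13).

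What this comparison called depended on which shNC_ATRA library was used. Against replicate 2 alone, which shares the high portion of reads outside genes with shKDM3B_ATRA, no member was higher and 7 were lower, where 8.78% of all genes were higher and 8.19% lower. The 7 were FUCA1 (-2.33), SMPD1 (-1.03), TFEB (-0.94), WIPI1 (-0.68), CTSD (-0.64), CD63 (-0.61) and MAP1LC3B (-0.59), and CTSS, at 0.54, was not called. Against replicate 1 alone, 8 members were higher and 7 lower, where 23.2% of all genes were higher and 13.3% lower. PPT1 (1.52), WIPI1 (1.07), LAMP2 (1.02), CTSS (0.95), ATG7 (0.94), ASAH1 (0.71), ATG5 (0.71) and ATP6V1A (0.62) were higher, and FUCA1 (-1.87), SMPD1 (-1.29), MCOLN1 (-0.83), CTSH (-0.70), ULK1 (-0.62), CTSZ (-0.61) and IDS (-0.61) were lower. WIPI1 thus changed direction with the library, and FUCA1 and SMPD1 were lower in both. In these fits the lone shNC_ATRA library was assumed to vary like the shKDM3B_ATRA libraries. Without either shKDM3B_ATRA library, CTSS was not called (0.77 and 0.70).

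Promoters were read from 250 bases before to 50 bases after the start site in RefSeq (GRCh38.p14), and 37 of the 46 genes had one. They were searched on both strands for the E-box CACGTG, for the longer TCACGTGA, and for the E-box with GT before and AC after it, a form that contains both of the others. CACGTG was found in 8 of 37 members (21.6%), against 8.77% of 27305 genes with a promoter in the table (7.26% of 35116 promoters), TCACGTGA in 5 (13.5%, against 1.18% of genes) and the form flanked by GT and AC in 2 (5.41%, against 0.421% of genes). The 8 were CTSA, CTSD, LAMP1, CD63, GAA, NEU1, ATP6V0D1 and MCOLN1. Among the 7 of them that were tested, 4 rose with ATRA in shNC cells and 2 in shKDM3B cells, with median log2 fold changes of 0.69 and 0.40. Among the members whose promoter lacks the motif, 15 of 28 and 16 of 27 rose, with medians of 0.79 and 0.89. The promoters of the 4 risers with the motif follow, at chr11:1763878-1764177 (- strand), chr12:55728960-55729259 (- strand), chr16:67481108-67481407 (- strand) and chr19:7522374-7522673 (+ strand), with CACGTG in capitals.
CTSD: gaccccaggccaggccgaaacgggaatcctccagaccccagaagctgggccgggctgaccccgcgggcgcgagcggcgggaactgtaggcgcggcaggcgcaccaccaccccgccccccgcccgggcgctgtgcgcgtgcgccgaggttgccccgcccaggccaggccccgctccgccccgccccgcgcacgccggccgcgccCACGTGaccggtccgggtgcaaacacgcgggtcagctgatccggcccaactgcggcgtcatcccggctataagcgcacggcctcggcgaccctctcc
CD63: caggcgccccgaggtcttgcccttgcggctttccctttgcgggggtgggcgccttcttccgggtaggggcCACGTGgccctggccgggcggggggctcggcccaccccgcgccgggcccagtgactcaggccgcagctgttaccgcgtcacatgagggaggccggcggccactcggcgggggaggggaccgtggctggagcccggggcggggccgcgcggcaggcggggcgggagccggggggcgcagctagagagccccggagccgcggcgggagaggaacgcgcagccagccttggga
ATP6V0D1: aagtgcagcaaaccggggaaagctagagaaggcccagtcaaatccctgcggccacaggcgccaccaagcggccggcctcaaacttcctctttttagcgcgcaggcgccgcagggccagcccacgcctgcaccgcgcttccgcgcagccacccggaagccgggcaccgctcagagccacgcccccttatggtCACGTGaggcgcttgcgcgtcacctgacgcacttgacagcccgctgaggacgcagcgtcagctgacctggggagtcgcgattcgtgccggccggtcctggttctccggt
MCOLN1: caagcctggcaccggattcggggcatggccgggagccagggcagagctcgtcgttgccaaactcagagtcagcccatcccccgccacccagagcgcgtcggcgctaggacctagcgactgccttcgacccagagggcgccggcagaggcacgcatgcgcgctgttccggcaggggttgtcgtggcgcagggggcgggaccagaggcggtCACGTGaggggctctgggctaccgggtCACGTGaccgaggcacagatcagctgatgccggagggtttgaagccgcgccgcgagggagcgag

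CTSD carries its single E-box 47 bases before the start, CD63 180, ATP6V0D1 59, and MCOLN1 carries 2, at 41 and 14 bases. The member with the most copies did not rise. LAMP1 holds 6, of which those at 28 and 1 bases before the start read TCACGTGA, and GAA holds 2 that are both flanked by GT and AC, at 76 and 31 bases. They are shown, at chr13:113296989-113297288 (+ strand) and chr17:80101331-80101630 (+ strand), as E-box promoters whose genes were not called in either cell line, and were chosen after their values were seen.
LAMP1: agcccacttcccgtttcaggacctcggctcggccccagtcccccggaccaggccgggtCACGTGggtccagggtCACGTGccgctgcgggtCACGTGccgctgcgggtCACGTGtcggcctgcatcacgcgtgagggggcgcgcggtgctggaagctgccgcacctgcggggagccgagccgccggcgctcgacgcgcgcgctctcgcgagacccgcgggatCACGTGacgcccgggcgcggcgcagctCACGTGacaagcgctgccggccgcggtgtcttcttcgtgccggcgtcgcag
GAA: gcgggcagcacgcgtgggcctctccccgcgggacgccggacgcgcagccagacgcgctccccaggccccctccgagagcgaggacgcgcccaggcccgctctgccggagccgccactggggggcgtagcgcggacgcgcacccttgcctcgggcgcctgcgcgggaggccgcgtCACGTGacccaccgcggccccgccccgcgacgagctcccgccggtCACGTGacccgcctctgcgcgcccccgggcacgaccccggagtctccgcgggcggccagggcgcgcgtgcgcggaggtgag

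A further 114 genes of the same pathways, listed by function with earlier results of these data known, were counted in the same fits. With ATRA, 33 of 101 tested rose and 5 fell in shNC cells (9 and 3 under the adjusted rule), and 36 of 100 rose and 12 fell in shKDM3B cells, with medians of 0.32 in both, where 15% and 10.8% of all genes rose and fell in shNC cells (7.84% and 5.06% under the adjusted rule) and 24% and 18.3% in shKDM3B cells. By role, 7 of 17 other lysosomal membrane and transport genes rose in shNC cells, 3 of 13 V-ATPase subunits, 5 of 19 hydrolases, 6 of 17 genes of the MiT family, mTORC1 and Ragulator, and 12 of 35 autophagy genes. LAPTM5, a lysosomal membrane protein of blood cells, was at 317 and 296 CPM in shNC, 205 and 275 in shKDM3B, 1359 and 1725 in shNC_ATRA and 1467 and 1618 in shKDM3B_ATRA, a log2 fold change of 2.37 (SE 0.22, adjusted p = 0.000956) in shNC cells. DRAM1, a p53-induced activator of autophagy, was at 14.2 and 12.5 CPM in shNC, 10.1 and 5.71 in shKDM3B, 52.6 and 75.8 in shNC_ATRA and 21.7 and 27.03 in shKDM3B_ATRA. It rose by 2.298 (SE 0.27, adjusted p = 0.00219) in shNC cells and was lower in shKDM3B than in shNC cells both without ATRA (-0.77 (SE 0.30, adjusted p = 0.421)) and with it (-1.39 (SE 0.26, adjusted p = 0.502)). TFEC, a relative of TFEB, was at 1.10 and 0.252 CPM in shNC, 2.83 and 0.982 in shKDM3B, 2.94 and 2.40 in shNC_ATRA and 23.7 and 13.3 in shKDM3B_ATRA, a log2 fold change of 2.03 (SE 0.69, adjusted p = 0.107) with ATRA in shNC cells and of 2.79 (SE 0.43, adjusted p = 0.502) between the ATRA-treated lines. MITF, another member of that family, was at 4.32 and 5.66 CPM in shNC, 6.88 and 5.92 in shKDM3B, 1.41 and 2.31 in shNC_ATRA and 2.42 and 3.11 in shKDM3B_ATRA and fell in shNC cells (-1.403 (SE 0.44, adjusted p = 0.0876)). BNIP3L, a receptor of mitochondrial autophagy, was at 42.8 and 58.4 CPM in shNC, 52.8 and 52.9 in shKDM3B, 14.2 and 23.1 in shNC_ATRA and 19.1 and 15.1 in shKDM3B_ATRA (-1.41 (SE 0.31, adjusted p = 0.0273) in shNC cells, -1.58 (SE 0.17, adjusted p = 5.4e-05) in shKDM3B cells). HYAL2, a hyaluronidase, was at 14.6 and 17.3 CPM in shNC, 19.2 and 22.7 in shKDM3B, 5.82 and 6.73 in shNC_ATRA and 8.005 and 6.43 in shKDM3B_ATRA and fell in both lines (-1.31 (SE 0.31, adjusted p = 0.033) in shNC cells, -1.49 (SE 0.21, adjusted p = 0.00038) in shKDM3B cells). CTSW, a cathepsin of cytotoxic lymphocytes, had counts of 31 and 43 in shNC, 21 and 92 in shKDM3B, 5 and 3 in shNC_ATRA and 2 and 4 in shKDM3B_ATRA.

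ATG10, the E2-like enzyme that joins ATG12 to ATG5, was at 5.07 and 3.69 CPM in shNC, 6.58 and 5.55 in shKDM3B, 4.17 and 884 in shNC_ATRA and 586 and 627 in shKDM3B_ATRA. Its high values are those of the 3 libraries with the high share of reads outside genes, and shNC_ATRA replicate 1 was level with the untreated libraries. In untreated cells, BNIP3 (1.06 (SE 0.29, adjusted p = 0.224)) and STX17 (0.78 (SE 0.18, adjusted p = 0.172)) were higher in shKDM3B and DNASE2 (-1.04 (SE 0.31, adjusted p = 0.266)) and DRAM1 were lower, 4 of 100 genes tested, where 3.48% of all genes were higher and 3.53% lower, and none of them under the adjusted rule. BNIP3, a receptor of mitochondrial autophagy, was at 66.3 and 134 CPM in shNC and 198 and 220.0 in shKDM3B, and DNASE2, the acid DNase, at 7.48 and 8.81 and 2.98 and 4.85. STX17, the syntaxin that fuses autophagosomes with lysosomes, was at 15.9 and 17.03 and 28.4 and 28.1. With ATRA, 5 of 99 were higher in shKDM3B cells and 3 lower, where 2.42% and 4.37% of all genes were, and again none under the adjusted rule. CLN3, a lysosomal membrane protein, was at 6.37 and 9.50 CPM in shNC_ATRA and 15.6 and 18.2 in shKDM3B_ATRA (1.09 (SE 0.32, adjusted p = 0.502)). ARSB, arylsulfatase B, was at 43.9 and 43.99 and 82.8 and 89.4 (0.97 (SE 0.12, adjusted p = 0.502)). The subunit genes LAMTOR2 of Ragulator, at 88.1 and 69.5 and 44.2 and 49.6 (-0.74 (SE 0.18, adjusted p = 0.502)), and ATP6V1F of the proton pump, at 83.5 and 77.6 and 48.2 and 54.7 (-0.64 (SE 0.13, adjusted p = 0.502)), were lower.

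Some members could hardly be read in these files. NEU1, the sialidase (chromosome 6, 31857659 to 31862905, minus strand), was listed at 0 counts in all 8 libraries. All 52 segments of 150 bases from its exons mapped to hg38 with a mapping quality under 10, and 82 of 144 protein-coding genes in the same stretch of chromosome 6 (56.9%) were at 0 throughout, against 19.8% of 18328 others. OPTN, an autophagy receptor, had 0 to 8 counts per library although all 37 of its segments mapped uniquely, and with all libraries in the fit it passed the low-count filter in no comparison. FUCA1 had 2 to 33 counts, and GABARAP 3 to 39 with 48.2% of its exon length under exons of other genes. Values of these genes rest on few reads, and 3 counts were worth 0.0920 to 0.316 CPM, depending on the library.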

How the data were processed

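RNA-seq libraries of 2 replicates in each of 4 groups were analysed. According to the methods and the labels, the authors used HISAT2 to align reads to hg38 and HTSeq to count them, and deposited whole-number counts per gene. Counts were tested with edgeR 4.0.16 in R 4.3.3 (filterByExpr, TMM scaling, quasi-likelihood F test), each pair of groups in its own fit over all genes and the interaction over all 8 libraries. The standard error was the log2 fold change divided by the square root of F. A gene was called at an unadjusted P under 0.05 and a fold change of at least 1.5, the thresholds of the study, with Benjamini-Hochberg adjusted p-values beside it. DESeq2 1.42.0, the authors' tool, other scalings, no filter, a replicate block and left-out libraries were alternatives. The procedure was also run on simulated counts, which held no split in the share of reads outside genes and so cannot speak for it. Files of untreated libraries list 56470 names and those of ATRA libraries 56609, so fits across treatments used the 37526 in common. Positions came from GENCODE v44 on hg38, promoters from RefSeq, and exon segments were mapped with minimap2 2.31-r1302. Some genes of the marker lists are not reported here. The members and gene lists were chosen with earlier results of these data known. All 46 members are named, with statistics for those called (at most 6 per direction and comparison in full) and, of the other pathway genes, at most 3 per direction whose libraries do not overlap. With 2 libraries against 2, a two-sided exact permutation test cannot go below 0.333. Depth ranged from 9708739 to 33017787 counts on genes, and reads carry no molecular identifiers, so a limit of 3 counts covers counting error only.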

Additional observations from a re-analysis of the deposited data

Results flagged for a closer look

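Among the 114 other pathway genes, the difference in the response to ATRA between the cell lines had an unadjusted P under 0.05 for 5 of 103 tested, and 3 of them also passed the 1.5-fold rule (2 up and 1 down, where 1.27% of all genes were called up and 2.72% down). It was 1.5002 on the log2 scale for CLN3, 0.6429 for ARSB and -0.8691 for LAMTOR2, each with an adjusted p of 0.999958 from edgeR, so none passed the correction for multiple tests.

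In the reads counted outside genes, which no comparison used, 50.02% of the uniquely aligned read pairs of shNC_ATRA replicate 2 and 51.45% and 51.05% of those of shKDM3B_ATRA replicates 1 and 2 were found, above the 8.49% to 9.62% of the other 5 libraries.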

How the results depend on the processing

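No call of a member changed direction under any alternative: over 54 called values, 548 alternative values kept the call and 71 lost it. Of the values that were not called, 164 changed sign and 50 passed the threshold under an alternative. The member counts in shKDM3B_ATRA against shKDM3B stayed within 1.5 times throughout.

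With adjusted p-values, members in shKDM3B against shNC went from 2 to 0 lower, in shKDM3B_ATRA against shNC_ATRA from 1 to 0 higher and 1 to 0 lower, and in shNC_ATRA against shNC from 23 to 13 higher and 2 to 1 lower. The other pathway genes went, in the same order of comparisons, from 2 to 0 higher and 2 to 0 lower, from 5 to 0 and 3 to 0, and from 33 to 9 and 5 to 3, and for the interaction from 2 to 0 and 1 to 0. Without the low-count filter, 4 members were lower in shKDM3B against shNC and 2 higher in shKDM3B_ATRA against shNC_ATRA, and the interaction called 5 other pathway genes higher and 3 lower. In these fits 3.06% of all genes were lower in the first comparison and 1.92% higher in the second. The interaction without the filter called 1.74% of all genes higher and 2.73% lower. DESeq2's test gave 1 member lower in the first and 2 higher and 0 lower in the second, where 2.79% of all genes were lower in the first and 2.66% higher and 4.48% lower in the second. A single fit of all 8 libraries gave 1 lower and 2 higher, respectively, with 2.698% and 3.73% of all genes. Scaling by total counts gave 4 pathway genes higher for the interaction, where 1.73% of all genes were. The cause was not tested.

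With a library left out, the members called ranged from 1 to 5 lower in shKDM3B against shNC, from 0 to 8 higher and 0 to 7 lower in shKDM3B_ATRA against shNC_ATRA, from 11 to 27 higher and 1 to 3 lower in shNC_ATRA against shNC, and from 0 to 5 higher and 0 to 1 lower for the interaction. The shares of all genes called ranged from 3.15% to 4.82% lower in the first, 0.265% to 23.2% higher and 0.624% to 13.3% lower in the second, 6.79% to 21.4% higher and 4.11% to 16.99% lower in the third, and 0.868% to 8.34% higher and 1.122% to 9.03% lower for the interaction. The other pathway genes ranged from 3 to 4 higher in the first, 2 to 16 higher and 0 to 8 lower in the second, 9 to 33 higher and 0 to 12 lower in the third, and 2 to 9 higher and 0 to 12 lower for the interaction.

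Whether the replicate numbers pair the libraries was not established, since nothing in the labels says that a number marks a shared culture and each comparison has 2 pairs. The deviations of same-numbered libraries correlated at 0.447 in shKDM3B against shNC, 0.0430 in shKDM3B_ATRA against shNC_ATRA, -0.102 in shNC_ATRA against shNC and 0.223 in shKDM3B_ATRA against shKDM3B, over 11690 genes. Under a fit that carries the replicate number as a block, called members numbered 0 higher and 4 lower, 1 and 0, 23 and 2, and 23 and 2, in this order, and 0 for the interaction, which called 2 other pathway genes lower. The shares of all genes in these fits were 4.43% and 4.53%, 1.25% and 2.42%, 13.3% and 9.91%, 24.2% and 18.5%, and 1.23% and 2.74%. With the numbers crossed in shNC_ATRA against shNC, an alternative chosen after seeing the data, 24 members rose and 2 fell, against 15.2% and 11.98% of all genes.

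Few counts limit OPTN, FUCA1, GABARAP and TFEB, and NEU1 had none in any library. The median 95% interval of a difference in response was 1.32 log2 units wide, and any difference inside such an interval remains compatible with the data.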
